A study of Homo sapiens with 3 samples.

Results

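Genes of ERK feedback were measured in MCF10A cells, a human breast epithelial line that is immortalized but does not form tumors. The group holds 10 genes chosen by symbol, the phosphatases DUSP1, DUSP4, DUSP5 and DUSP6, the Sprouty genes SPRY1, SPRY2 and SPRY4, the related SPRED1 and SPRED2, and PHLDA1. All 10 were found by Ensembl identifier among the 62754 genes of the deposited table. The 3 replicates were harvested 27 h after cells were seeded, and each library was made from 300 ng of RNA after removal of ribosomal RNA. All 3 replicates were labelled as 1 group, EV, and were treated here as 1 batch. In this group, cells carried an empty retroviral vector for doxycycline-inducible expression without an inserted gene, were selected with puromycin, and received neither doxycycline nor another treatment. By the methods of the study, which do not mention the vector, the medium contained a mammary growth supplement kit, of which epidermal growth factor and hydrocortisone are standard components, and cholera toxin, which is known to raise cyclic AMP. The labels do not say whether the replicates came from separate cultures, so the spread between them may be technical.

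The ERK pathway carries growth factor signals from receptors such as EGFR through RAS and the kinases RAF, MEK and ERK to the nucleus. Active ERK induces genes whose products switch the pathway off again. The dual-specificity phosphatases (DUSPs) remove the activating phosphates from ERK and related kinases, Sprouty proteins act between the receptor and RAF, SPRED proteins bring the RAS inhibitor neurofibromin to the membrane, and PHLDA1 is a growth factor-induced protein with a pleckstrin homology-like domain. In breast epithelial cells, which depend on epidermal growth factor in culture, the transcripts of these genes are commonly read as a trace of ERK activity.

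Levels are given as transcripts per 1000000 (TPM), the number of reads per base of transcript expressed relative to the sum over all genes, so that genes of different length can be compared. Basal markers (KRT5, KRT14, KRT17, TP63, ITGB4 and LAMB3) and general epithelial markers (CDH1 and EPCAM) were at or above 1 TPM in 8 of 8 cases. Together they summed to between 12500 and 16076 TPM per replicate, most of it from the keratins KRT5, KRT14 and KRT17. Of 6 luminal markers, 4 were at or above 1 TPM with a sum between 478.5 and 577.4 TPM, most of it from the keratins KRT8 and KRT18, while the hormone receptors ESR1 and PGR had means of 0.035 and 0.0049 TPM. Markers of other cell types summed to between 4.82 and 5.84 TPM for fibroblasts, 1.57 and 1.997 TPM for endothelium and 0.062 and 0.286 TPM for leukocytes. Of these, COL1A1 of fibroblasts (mean 4.96 TPM; 166, 146 and 129 reads) and PECAM1 of endothelium (mean 1.77 TPM; 70, 66 and 48 reads) were above 1 TPM in every replicate. COL1A2, LUM, CDH5 and CD3E were at 0 in every replicate. Replicates 1, 2 and 3 held 15273329, 15446347 and 11166546 reads on annotated genes. Replicate 3 stood apart from the others. The signal recognition particle RNA RN7SL1 took 150632 TPM there, against 49293 and 56610 TPM in replicates 1 and 2, and replicate 3 was below the mean of the others by a median log2 ratio of -0.24 over 8807 genes whose mean reached 10 TPM. Levels of the 10 genes are therefore given for each replicate. The median level, the spread, the share of DUSP1, the order and the test of counting error were also read without replicate 3. The other means and SDs include it.

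DUSP1 was the highest of the 10 genes, and its sequence is shown because it held the most cyclic AMP response motifs among the 8 genes whose promoters were searched and the densest AU-rich motifs among all 10. The gene (ENSG00000120129) has 4 exons and lies on the minus strand of chromosome 5 of hg38 from 172768096 to 172771195. Its promoter as given by RefSeq on GRCh38.p14, from 250 bases before to 50 bases after the start of transcription (chr5:172771146-172771445, minus strand), is printed 5′ to 3′, with the motif TGACG on either strand in capitals.
DUSP1: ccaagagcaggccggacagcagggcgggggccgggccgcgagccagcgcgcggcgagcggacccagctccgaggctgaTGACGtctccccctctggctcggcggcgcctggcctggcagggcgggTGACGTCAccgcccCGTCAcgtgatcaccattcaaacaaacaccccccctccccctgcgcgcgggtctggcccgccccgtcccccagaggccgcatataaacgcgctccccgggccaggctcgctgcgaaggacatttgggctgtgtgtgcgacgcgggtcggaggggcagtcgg

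The motif TGACG is the core of the cyclic AMP response element (CRE), whose full form TGACGTCA reads the same on both strands and so holds the core on each of them. The DUSP1 promoter held 4 cores, of which 2 overlap within 1 full CRE. A full CRE was present in 1.98% and a core in 25.01% of the first listed promoters of 27305 genes. RefSeq promoters were matched for 8 of the 10 genes, all but DUSP4 and DUSP5, and a core was present in 4 of these 8, with 1 core each in SPRY2, SPRY4 and SPRED2. These cores are shown, with the core in capitals, at chr13:80341300-80341328, chr5:142324299-142324327 and chr2:65432553-65432581, each on the minus strand.
SPRY2: ctcggatccacaTGACGccatttactgct
SPRY4: tcttcggagccgTGACGgactgaattccc
SPRED2: ccgctgggaagaCGTCAtcgcttccgccc

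The core began 190 bases before the start in SPRY2 and 68 bases before it in SPRY4, and lay 30 bases after the start in SPRED2. None of the 8 first listed promoters held the AP-1 motif TGANTCA, which occurred in 7.76% of genes, or the ETS motif CCGGAAGT, which occurred in 4.44%, on either strand. A second start listed for SPRED2 held 2 copies of TGANTCA. These matches describe letters in a window of 300 bases and do not show binding.

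The mean reached 1 TPM, the cutoff of expression in the study's modeling, for all 10 genes, where 24.9% of all 62754 genes and 56.7% of the 20046 protein-coding genes reached it. All 10 were at or above it in every replicate. The 10 genes were chosen with earlier results of these data known, so this count is no test against those shares. Together the 10 genes summed to 568.1, 572.0 and 464.8 TPM in replicates 1, 2 and 3. The means ran from 4.42 TPM for SPRY1 to 195.7 TPM for DUSP1, with a median of 37.1 TPM, beside a median of 24.9 TPM over the 11360 protein-coding genes with at least 1 TPM.

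**Figure D1:**
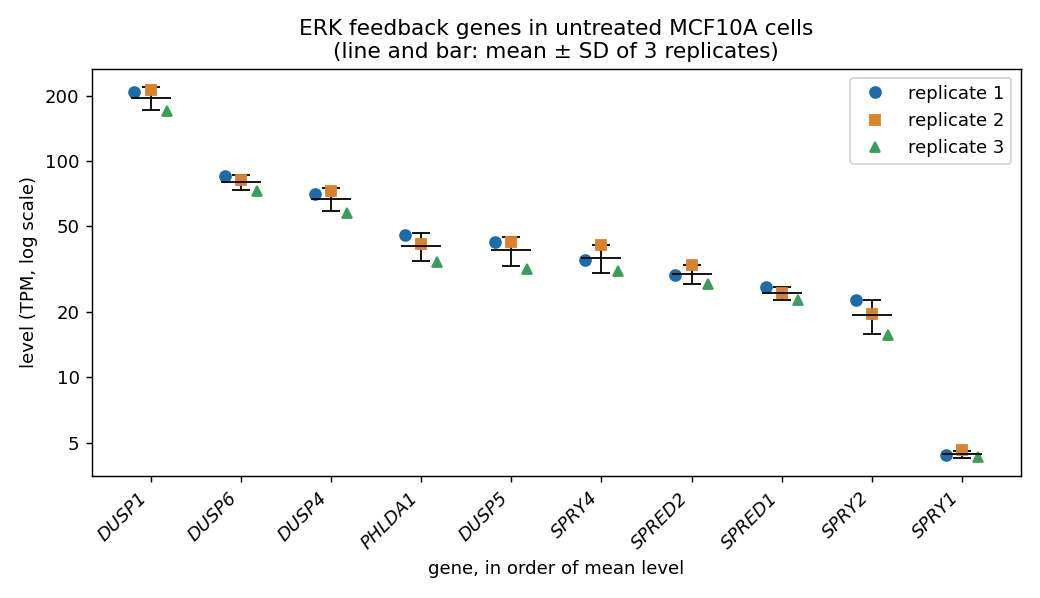
Level of each of the 10 genes in TPM on a log scale, with 1 symbol per replicate and the mean ± SD (n = 3) as a line with bars, in order of the mean. DUSP1 sits above the others at 168.9 to 211.2 TPM, SPRY1 below them at 4.28 to 4.61 TPM, and replicate 3 is the lowest replicate of every gene.

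Among the phosphatases, DUSP1 is nuclear and acts on p38 and JNK as well as ERK, and its gene is also known to respond to stress and glucocorticoids. It was measured at 206.9, 211.2 and 168.9 TPM in replicates 1, 2 and 3, a mean of 195.7 ± 23.3 TPM (SD, n = 3), from 2191, 2299 and 1522 reads. Replicates 1 and 2 lay close together and replicate 3 below them. DUSP1 ranked 706 among the 11360 protein-coding genes with at least 1 TPM.

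DUSP6 (ENSG00000139318, chromosome 12 from 89347235 to 89352501) is the cytoplasmic phosphatase with a marked preference for ERK. Its levels were 85.2, 81.7 and 72.5 TPM, a mean of 79.8 ± 6.56 TPM (SD, n = 3). DUSP1 exceeded DUSP6 in every replicate, by 2.43-, 2.59- and 2.33-fold. An annotated antisense gene on the opposite strand shares 24.1% of the canonical DUSP6 transcript, and it was at 0.589, 0.573 and 0.791 TPM.

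DUSP4 (ENSG00000120875, chromosome 8 from 29333064 to 29350684) is a nuclear phosphatase of ERK and JNK. It was measured at 70.4, 72.8 and 57.5 TPM, a mean of 66.9 ± 8.23 TPM (SD, n = 3). The levels of DUSP4 and DUSP6 overlapped between replicates, since DUSP6 in replicate 3 was below DUSP4 in replicate 2. Within each replicate DUSP6 was nonetheless the higher, by 1.21-, 1.12- and 1.26-fold.

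DUSP5 (ENSG00000138166, chromosome 10 from 110497907 to 110511533) is nuclear and specific for ERK. Its levels of 42.2, 42.0 and 31.6 TPM were the lowest of the 4 phosphatases, with a mean of 38.6 ± 6.09 TPM (SD, n = 3). DUSP1 was 5.09-fold and DUSP6 2.08-fold above it (mean of the log2 ratios within replicates).

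The 10 catalytically active phosphatases of MAP kinases form 1 family, of which the 4 feedback genes made up 65.1 ± 1.32% (SD, n = 3) of the summed TPM. DUSP1 held 33.2%, 33.1% and 34.0% of the family in replicates 1, 2 and 3, DUSP6 13.7 ± 0.89%, DUSP4 11.4 ± 0.13% and DUSP5 6.57 ± 0.21% (SD, n = 3 each). Such shares do not depend on how a replicate was scaled. Replicate 3 held the highest share of DUSP1, DUSP6 and DUSP4 and the lowest share of DUSP5.

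Most of the rest came from DUSP7, the cytoplasmic relative of DUSP6, which lies on chromosome 3. DUSP7 was measured at 187.2, 200.5 and 139.3 TPM, a mean of 175.7 ± 32.2 TPM (SD, n = 3), and held 29.8 ± 1.70% of the family. It was below DUSP1 in every replicate, by 1.11-, 1.05- and 1.21-fold, but the TPM of both genes overlapped between replicates. It was above DUSP6 by 2.20-, 2.45- and 1.92-fold.

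The other 5 phosphatases were low. The mean was 9.80 ± 1.00 TPM for DUSP2, 9.33 ± 1.59 TPM for DUSP10 and 8.83 ± 1.24 TPM for DUSP16 (SD, n = 3 each). DUSP9, the third ERK phosphatase of the cytoplasm, was on both sides of the cutoff with 1.02, 1.06 and 0.826 TPM from 13, 14 and 9 reads. DUSP8, which acts on JNK and p38, had 0.236, 0.575 and 0.278 TPM from 6, 15 and 6 reads. Of the ERK phosphatases of the cytoplasm, DUSP7 and DUSP6 were above the cutoff in every replicate and DUSP9 was not.

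**Figure D2:**
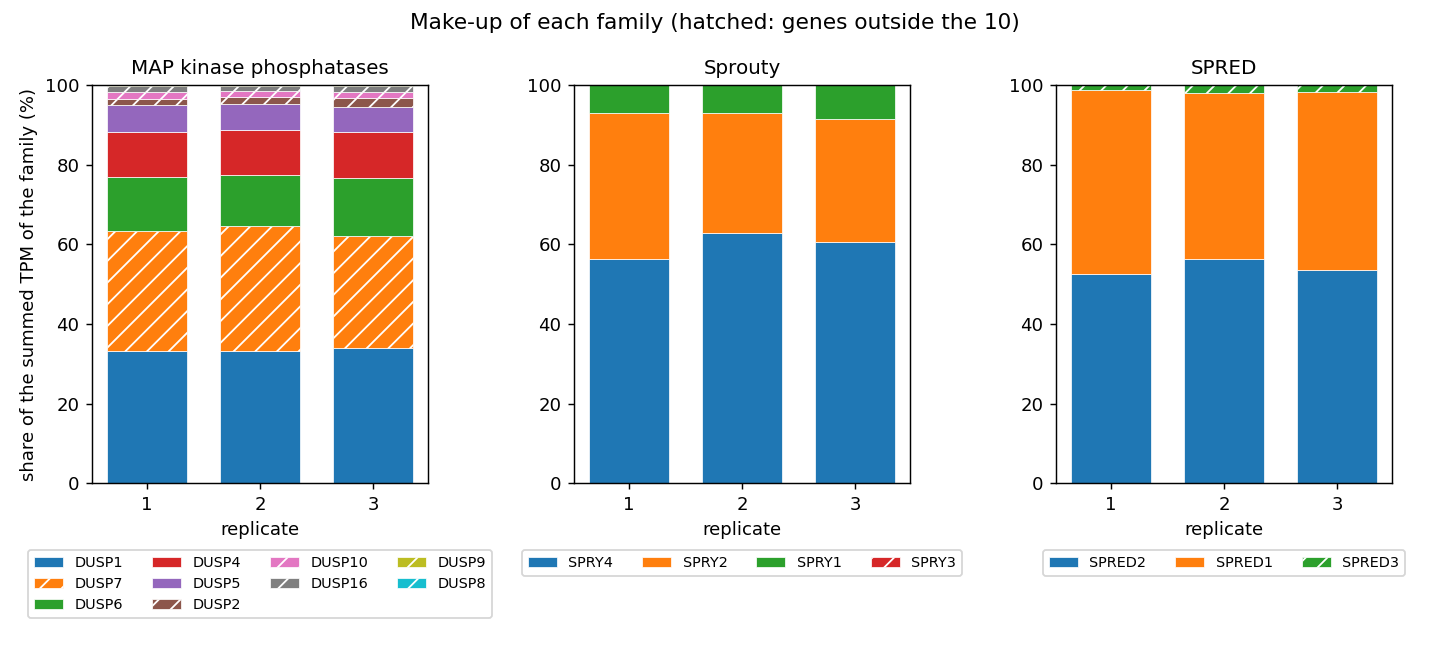
Share of each gene in the summed TPM of its family, in percent, as 1 stacked bar per replicate for the MAP kinase phosphatases, the Sprouty genes and the SPRED genes, with hatching for genes outside the group of 10. DUSP1 and DUSP7 hold about equal parts (33.4% and 29.8% on average), SPRY4 is the major Sprouty at 56.3% to 62.8%, and SPRED1 and SPRED2 are close to each other.

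Among the Sprouty genes, SPRY4 (ENSG00000187678, chromosome 5 from 142310427 to 142326455) was the highest with 34.9, 40.9 and 30.8 TPM, a mean of 35.6 ± 5.09 TPM (SD, n = 3). Replicate 2 was the highest for SPRY4, as for 4 others of the 10 genes, and replicate 1 was the highest for the remaining 5. SPRY2 (ENSG00000136158, chromosome 13 from 80335976 to 80341126), the most studied inhibitor of the family, was measured at 22.7, 19.6 and 15.7 TPM, a mean of 19.3 ± 3.54 TPM (SD, n = 3). Every replicate of SPRY2 was below every replicate of SPRY4, and the ratio of SPRY4 to SPRY2 was 1.54, 2.09 and 1.97 in replicates 1, 2 and 3.

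SPRY1 (ENSG00000164056, chromosome 4 from 123396795 to 123403760) was the lowest of the 10 genes with 4.37, 4.61 and 4.28 TPM, a mean of 4.42 ± 0.168 TPM (SD, n = 3). It rested on 60, 65 and 50 reads, so that the 95% exact Poisson interval in replicate 1 reached from 3.33 to 5.63 TPM. For DUSP1 in the same replicate it reached from 198.3 to 215.8 TPM. These intervals cover counting error only. SPRY2 was above SPRY1 by 5.20-, 4.25- and 3.66-fold in replicates 1, 2 and 3.

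SPRY3, the remaining Sprouty gene, had 1, 2 and 1 reads, or 0.021, 0.041 and 0.025 TPM, which is below the level of 3 reads in every replicate. Its level is uncertain, because exons that hold 99.3% of its canonical transcript on chromosome X are repeated without a difference on chromosome Y of hg38, and reads that fit 2 places may not have been counted. SPRY4, SPRY2 and SPRY1 held 59.9 ± 3.32%, 32.5 ± 3.58% and 7.51 ± 0.79% (SD, n = 3 each) of the Sprouty total.

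SPRED2 (ENSG00000198369, chromosome 2 from 65310851 to 65432637) was measured at 29.7, 33.2 and 27.03 TPM, a mean of 29.96 ± 3.08 TPM (SD, n = 3). SPRED1 (ENSG00000166068, chromosome 15 from 38252836 to 38357249), the gene mutated in Legius syndrome, was at 26.2, 24.6 and 22.7 TPM, a mean of 24.5 ± 1.77 TPM (SD, n = 3). SPRED2 was above SPRED1 in every replicate, by 1.13-, 1.35- and 1.19-fold, and the lowest SPRED2 value was above the highest SPRED1 value. SPRED3, the third member, was at 0.700, 1.13 and 0.868 TPM from 18, 30 and 19 reads and held 1.63 ± 0.35% (SD, n = 3) of the SPRED total.

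PHLDA1 (ENSG00000139289, chromosome 12 from 76025447 to 76031776) was measured at 45.5, 41.4 and 34.0 TPM, a mean of 40.3 ± 5.86 TPM (SD, n = 3). An antisense gene, PHLDA1-AS1, shares 9.35% of its canonical transcript on the opposite strand and was at 0.335, 1.63 and 0 TPM. The other 2 genes of its family were higher in every replicate, PHLDA2 with a mean of 132.6 ± 13.8 TPM and PHLDA3 with 75.9 ± 10.9 TPM (SD, n = 3 each). The ratio to PHLDA1 was 2.98, 3.49 and 3.46 for PHLDA2, which is known for its imprinting in placenta, and 1.78, 2.01 and 1.86 for PHLDA3, known as a target of p53.

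In order of the mean, the genes were DUSP1, DUSP6, DUSP4, PHLDA1, DUSP5, SPRY4, SPRED2, SPRED1, SPRY2 and SPRY1. Of the 45 pairs that can be formed among them, 44 had the same order in every replicate. The exception was PHLDA1 and DUSP5, which differed by less than the spread between replicates, with ratios of 1.08, 0.986 and 1.08. Of the 9 pairs of neighbours, 4 had ranges of TPM that did not overlap, DUSP1 over DUSP6, DUSP4 over PHLDA1, SPRED2 over SPRED1 and SPRY2 over SPRY1. For DUSP5 over SPRY4 the ratios of 1.21, 1.03 and 1.02 were close to 1, and with the canonical in place of the longest transcript length SPRY4 was the higher of the pair, at 31.7 against 31.5 TPM. An exact sign test over 3 replicates cannot give a two-sided p below 0.25, so no test of the order was made.

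**Figure D3:**
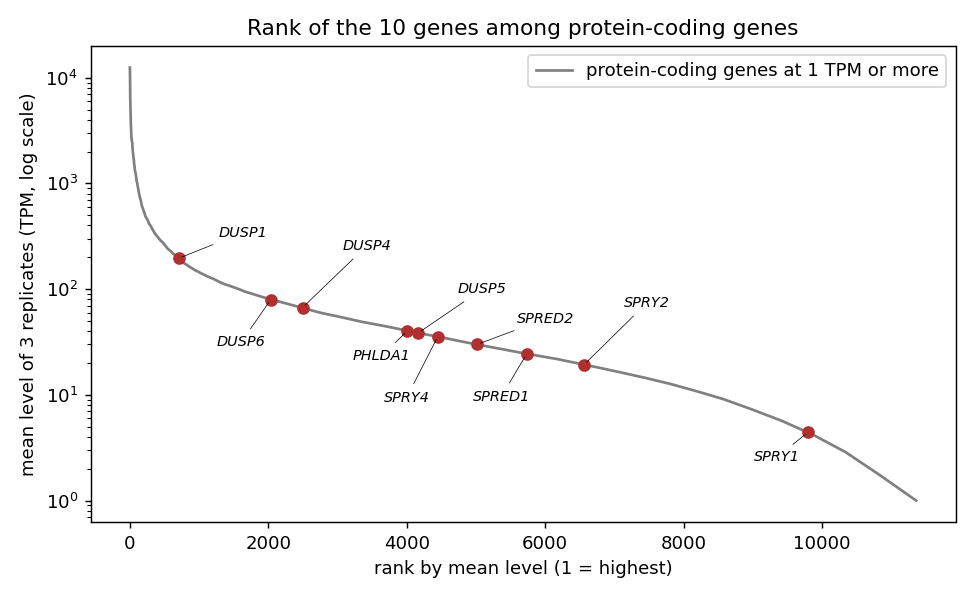
Mean level in TPM (log scale) against rank among the 11360 protein-coding genes with at least 1 TPM, drawn as a grey line, with the 10 genes as red points. DUSP1 is at rank 706, DUSP6 at 2037, the genes from PHLDA1 to SPRY2 between ranks 4008 and 6563, and SPRY1 at rank 9796.

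DUSP1 stood above 93.8% of the protein-coding genes with at least 1 TPM, DUSP6 above 82.1%, DUSP4 above 78.0% and SPRY1 above 13.8%. The 3 protein-coding genes whose levels were most like those of DUSP1, by the largest log2 difference over the 3 replicates, were NCAPD2, PEA15 and PFKP, with differences of 0.016, 0.039 and 0.041 and means of 196.3, 196.0 and 197.0 TPM. The likeness rests on 3 samples of 1 condition and is mainly one of level.

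To see whether the genes varied between replicates more than the number of reads allows, a chi-square test set the reads of each gene against those that equal TPM in all 3 replicates would give. Over the 15802 genes with 15 reads or more, and with p-values adjusted by Benjamini-Hochberg, 9 of the 10 genes had an adjusted p under 0.05, where 54.3% of all genes did. SPRY1 was the exception, with an adjusted p of 0.936. Among the 11503 genes with at least 100 reads, the same 9 genes fell under 0.05, where 68.2% of all did. All 10 genes were lowest in replicate 3, as were 78.5% of the 11360 protein-coding genes with at least 1 TPM. When replicates were scaled by the median ratio of genes with at least 10 TPM, 2 of the 10 genes were called, SPRY4 with an adjusted p of 0.00187 and PHLDA1 with 0.0355, where 31.2% of all genes were. Without replicate 3 and with equal TPM, SPRY4 was called and the other 9 genes were not, where 21.3% of 14980 genes were called. In these last settings, the share of the 10 genes called was no higher than that of all genes. The test covers counting error and treats no spread between cultures or libraries.

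SPRY4 was the gene called between replicates 1 and 2, with 40.9 TPM in replicate 2 against 34.9 in replicate 1 and a share of the Sprouty total of 62.8% against 56.3%. SPRY2, which is part of the same total, was at 19.6 TPM in replicate 2 and 22.7 in replicate 1, a difference that was not called. PHLDA1, also not called between replicates 1 and 2, was at 41.4 and 45.5 TPM, and the ratio of PHLDA1 to SPRY4 was 1.30 in replicate 1, 1.01 in replicate 2 and 1.10 in replicate 3. The coefficient of variation of the 10 genes had a median of 12.1% and reached from 3.81% for SPRY1 to 18.3% for SPRY2. After scaling by the median ratio its median was 6.17%, and it reached from 2.21% for DUSP6 to 10.4% for SPRY2. SPRY1, which rested on 60, 65 and 50 reads, was then at 7.66%, so its low value did not hold after scaling. The SD of log2(TPM + 1) had a median of 0.18 over the 10 genes and 0.19 over all 15640 genes with at least 1 TPM. Over the 11360 protein-coding genes among these it was 0.16. Without replicate 3 the median was 0.054 over the 10 genes and 0.11 over all genes with at least 1 TPM. All genes include many of low level, and no background of like level was read without replicate 3. With all 3 replicates, the median over genes with at least 10 TPM was 0.16.

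**Figure D4:**
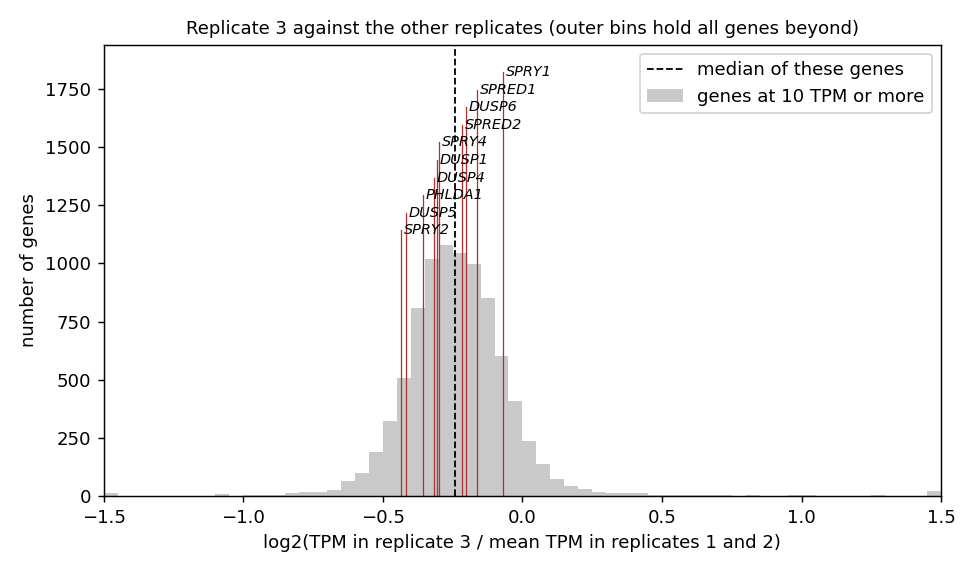
Histogram of the log2 ratio of TPM in replicate 3 to the mean of replicates 1 and 2 over the 8807 genes with at least 10 TPM (grey, number of genes per bin), with its median of -0.24 as a dashed line and the 10 genes as red lines. All 10 lie below 0, from -0.43 for SPRY2 to -0.07 for SPRY1, on both sides of the median.

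The log2 ratio of replicate 3 to the mean of the others had a median of -0.30 over the 10 genes, beside -0.24 over genes with at least 10 TPM, of which 92.2% were below 0. SPRY2 and DUSP5 were lowest at -0.43 and -0.42, and 10.9% and 13.0% of genes with at least 10 TPM were at or below them. SPRED1 and SPRY1 were highest at -0.16 and -0.07. The part that the high RN7SL1 of replicate 3 had in these ratios was not tested.

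Rapidly decaying transcripts often carry AU-rich elements in the 3′ untranslated region, built from the pentamer ATTTA. Canonical transcripts of GENCODE release 44 were searched for it on the sense strand, with overlaps counted. The pentamer was present in 9 of the 10 genes and in 76.3% of 10935 protein-coding genes with at least 1 TPM and an untranslated region of at least 100 bases. The median was 2.34 per kb over the 10 genes and 1.85 over all. DUSP1 was densest with 4 pentamers in 666 bases, or 6.01 per kb, above 94.6% of genes. SPRED1 had the most with 24 pentamers in 5585 bases. PHLDA1 had 14 pentamers in 4672 bases, SPRY4 8 in 3779, DUSP4 6 in 3962, SPRED2 5 in 2650, SPRY1 4 in 1204, SPRY2 2 in 782 and DUSP6 1 in 2019 bases, and DUSP5 had none in 1107. Overlapping pentamers (ATTTATTTA) were present in DUSP1 alone among the 10 genes, and in 8.24% of all genes. The site in DUSP1 is at chr5:172768640-172768667 on the minus strand, with the pentamers in capitals.
DUSP1: tggtccttATTTATTTAacttcacccga

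DUSP1 had the highest level of the group, the shortest untranslated region and the highest density of the pentamer, while DUSP5, also a nuclear phosphatase, held none. The decay of these transcripts was not measured.

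For the rest of the ERK pathway, 53 genes in 6 lists were read, of which 45 reached a mean of 1 TPM. Of all protein-coding genes, 56.7% did. The count was 4 of 6 for the other MAP kinase phosphatases and 0 of 2 for the other Sprouty and SPRED genes. In the cascade from EGFR to ERK, 18 of 19 genes reached it, with a median of 63.7 TPM. The highest was the adaptor SHC1 with a mean of 536.9 ± 78.0 TPM (SD, n = 3), and KSR2, a scaffold, was below the cutoff with 1, 1 and 0 reads. The level of 0 in replicate 3 allows up to 0.038 TPM. Among genes listed as other brakes of the pathway, 14 of 16 reached 1 TPM, with a median of 22.2 TPM. This list includes IER3, with a mean of 148.5 TPM, which is not an established brake. The highest of the list was PEBP1, a binding partner of RAF, with a mean of 400.1 ± 26.5 TPM (SD, n = 3). The RAS GTPase activating proteins RASAL1 and RASAL3 were below 1 TPM, the former with 0.25, 0.340 and 0.353 TPM and the latter with 0 reads in every replicate, which allows up to 0.157 TPM.

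Of 8 other transcripts known to follow ERK activity, 7 reached 1 TPM, with a median of 69.2 TPM. Cyclin D1 (CCND1) was the highest with 177.1, 181.4 and 142.6 TPM, a mean of 167.0 ± 21.3 TPM (SD, n = 3), and the ephrin receptor gene EPHA4 was below the cutoff with 0.538, 0.553 and 0.668 TPM. The median over protein-coding genes with at least 1 TPM was 24.9 TPM. The medians of the 10 feedback genes (37.1 TPM), the other PHLDA genes (104.3 TPM), the cascade and these 8 transcripts were higher. Those of the other brakes, the other MAP kinase phosphatases (9.08 TPM) and the other Sprouty and SPRED genes (0.465 TPM) were lower. The list medians also count genes below 1 TPM, which the median of 24.9 TPM leaves out. For the other brakes, with 2 such genes, the lower median therefore does not settle the order. These lists were of unequal size and chosen by hand with earlier results of these data known, and no test between them was made.

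**Figure D5:**
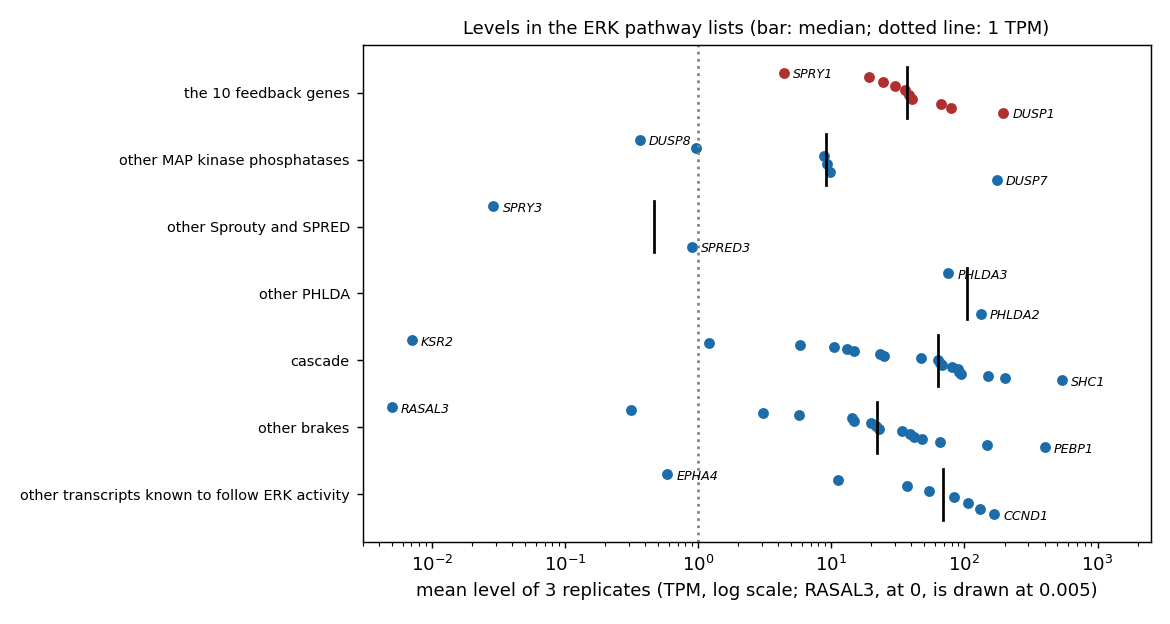
Mean level in TPM (log scale, n = 3) of every gene in the lists of the ERK pathway and of relatives of the 10 genes, with 1 point per gene, the median of each list as a bar and 1 TPM as a dotted line. The 10 feedback genes (red) all lie right of the line, while 8 genes of the other lists lie left of it, among them DUSP8, SPRY3, KSR2 and RASAL3.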

How the data were processed

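The authors prepared libraries with ribosomal RNA depletion, and used Seq2science to map reads to hg38 and count them, by the paper's methods. The submitters' processing notes list STAR, fastp and MultiQC. Which annotation release was counted, and whether strand was used, is not given in the sources used here. The authors deposited TPM per gene and replicate, each replicate summing to 1000000.

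The 10 genes and all lists were chosen with earlier results of these data known. Genes were matched to GENCODE release 44 on hg38 (62700 of 62754 found). Reads were recovered as TPM times the longest transcript length (1 base less per exon) in units of its smallest value above 0, which was taken as 1 read. All values came out whole within 0.001. Genes with 15 reads or more entered a chi-square test of equal TPM in all replicates, adjusted by Benjamini-Hochberg. Scripts were tested on simulated data. No groups were compared, since there is 1 condition. Promoter sequences are RefSeq's (GRCh38.p14). A 0 was read as at most 3 reads. The canonical exons of the 10 genes overlap no other gene of their own strand. Named beside the 10 genes were all other members of their families, and of each pathway list the highest gene, those under 1 TPM and those on both sides of it. Alternatives covered the scaling of TPM, transcript length, cutoff, pseudocount (1 in the main setting), read minimum and leaving out each replicate. Software was Python 3.11.15 with matplotlib 3.10.9, scipy 1.17.1, pandas 2.3.3 and numpy 2.4.6.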

Additional observations from a re-analysis of the deposited data

How the results depend on the processing

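No paired analysis was possible because the series holds a single condition. All 10 genes passed each cutoff tried (0.5, 1 and 2 TPM), by the mean or in every replicate, and with each replicate left out. The median level of the 10 genes, 37.1 TPM, was 42.5 with protein-coding genes summing to 1000000 and 31.6 with canonical transcript lengths, and lay between 34.9 and 40.0 when 1 replicate was left out. The median spread of 0.18 was 0.086 when scaled by the median ratio, where that of all genes with at least 1 TPM was 0.13. The spread of the 10 genes lay between 0.054 and 0.21 with 1 replicate left out, lowest without replicate 3. The number of genes that differed between replicates beyond counting error was 9, where 54.3% of all genes tested did. It was 2 when scaled by the median ratio, where 31.2% of all did. It was 8 without replicate 1 and 8 without replicate 2, where 46.7% of all did in each case. Without replicate 3 it was 1, where 21.3% of all did. The share of DUSP1 in its family lay between 33.2% and 33.6% under all alternatives tried. The order by mean changed for 1 of 45 pairs with canonical lengths and for none with a replicate left out. Depth limits SPRY1 among the 10 genes, and SPRY3, DUSP8, DUSP9 and SPRED3 among their relatives.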
